A study of Mus musculus with 6 samples.

Results

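The collagen genes of the developing mouse neocortex were examined in Bcl11a mutant and control embryos. They were all genes whose symbol in the array annotation reads Col, a number, a and a number, which gave 46 probe sets with 1 symbol for 44 of the 19938 genes tested. They were grouped by the structure of their proteins into 11 fibrillar collagens, 8 basement membrane collagens and 25 other collagens. The series holds 1 Affymetrix Mouse Gene 1.0 ST array for each of 6 embryos at embryonic day 14.5. Neocortex came from 3 mutants with the genotype Bcl11aΔflox/Δflox, called knockouts in the labels, and from 3 controls with the genotype Bcl11a+/+. RNA was prepared from each embryo separately. How the floxed allele was deleted, in which cells, and the strain of the mice were not stated by the labels or the series text.

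Collagens are extracellular proteins whose chains wind into a rope-like helix built of repeats that start with glycine. Fibrillar collagens pack into the cross-striated fibrils of connective tissue, and in the developing brain they are chiefly products of the meninges and of cells around vessels. Type IV collagen forms the mesh of basement membranes, among them the pial basement membrane to which radial glia attach and the membrane around brain vessels. Collagen III is known as a ligand of Adgrg1 (Gpr56), a receptor of radial glia and neurons that holds the pial border of the mouse cortex together.

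All values are log2 expression levels of a probe set after the authors' RMA normalization, and a difference is the mutant mean minus the control mean. Array medians ranged from 7.23 to 7.33, and correlations between arrays from 0.993 to 0.997. Bcl11a read 11.41, 11.49 and 11.34 in mutants 1, 2 and 3, against 12.20, 12.30 and 12.26 in controls 1, 2 and 3, so each array followed its label, with a difference of -0.84 ± 0.06 (SE, limma adjusted p = 0.00201). Probes outside the deleted part would not test the deletion, and the place of these probes within the gene was not stated. Of 15 genes listed for neocortical cells, 13 were measured, and their mean level lay between 11.71 and 11.78 in mutants and between 11.68 and 11.74 in controls. An array of whole tissue cannot tell fewer cells of a type from less RNA per cell. The file gives no detection call, so whether a dim collagen was above background was not tested, and RMA compresses differences of dim genes.

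None of the 44 collagens passed the threshold, a limma adjusted p under 0.05 over all genes, which 57 genes or 0.286% passed. Their median difference was 0.02, as was the median of all genes, and 31 of the 44 differences were positive, against 60.3% of all genes. Differences ranged from -0.16 for Col12a1 to 0.49 for Col1a2, and 30 of the 44 were smaller than 0.1 in size. The 95% confidence interval of every one of the 44 lay between -0.50 and 0.84, so within a change of 2-fold in either direction on the scale of these values. At an unadjusted limma p under 0.05 there were 3 collagens, Col1a1, Col1a2 and Col3a1, or 3 of 44 against 6.05% of all genes. The mutant arrays all lay above the control arrays for 3 collagens, Col1a1, Col1a2 and Col6a1, against 7.69% of all genes, and below them for none, against 2.85%. A share of 3 in 44 is close to both backgrounds of 6.05% and 7.69%. The count at an unadjusted limma p under 0.05 moved with the arrays used, to 8 without control replicate 1. The share of all genes in that fit was not counted. Without mutant replicate 1, again none of the 44 passed, against 0.125% of all genes, the median difference was 0.03, 27 of the 44 differences were positive, against 57.8% of all genes, and 1 collagen, Col1a2, had an unadjusted p under 0.05, against 4.68%.

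**Figure D1:**
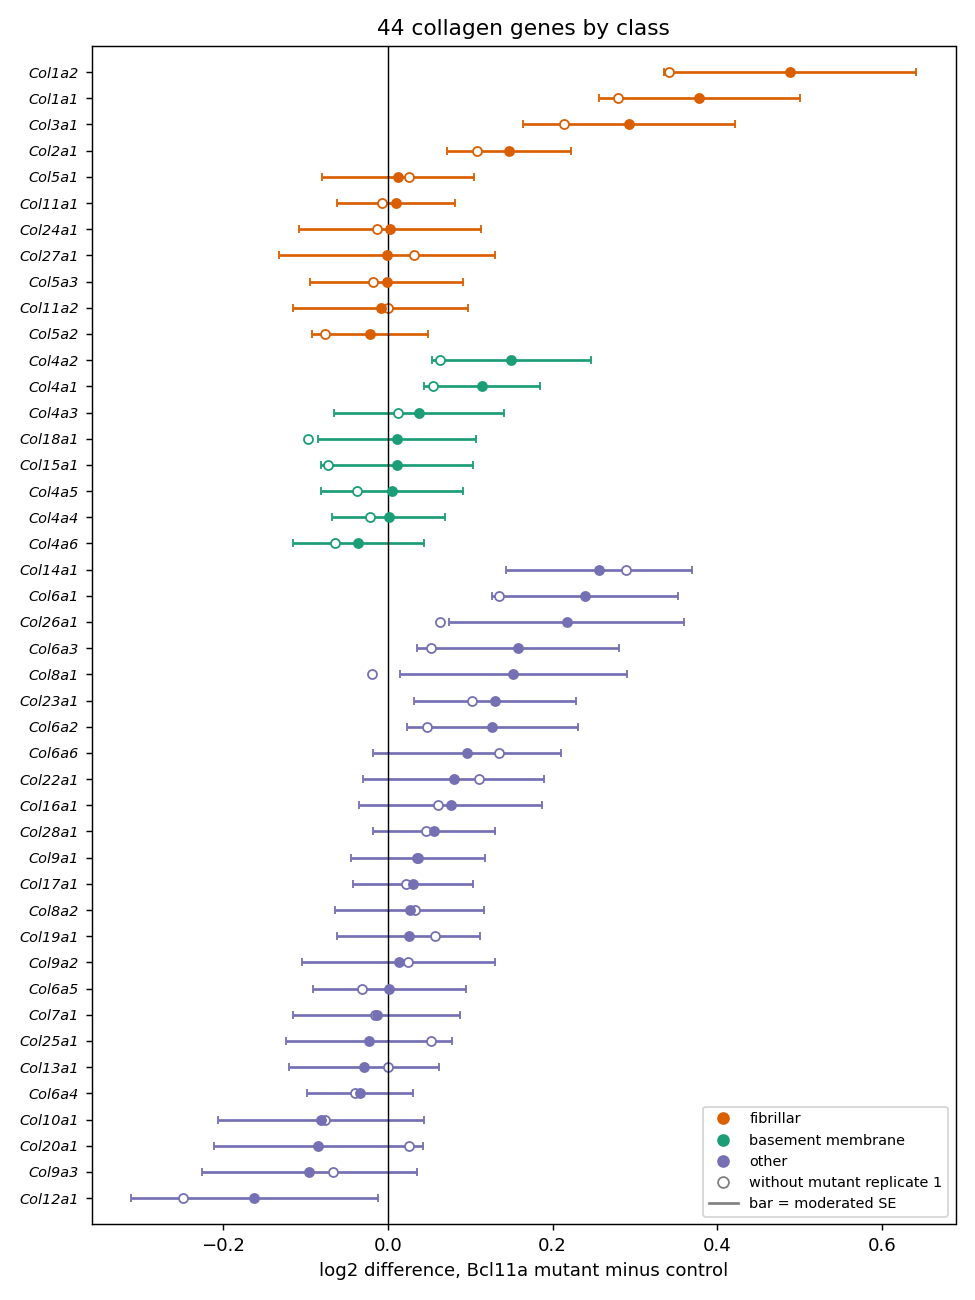
Log2 difference of mutant minus control for each of the 44 collagen genes, grouped by class, with the moderated standard error as a bar and the difference without mutant replicate 1 as an open circle. Col1a2, Col1a1 and Col3a1 stand at 0.49, 0.38 and 0.29, and 30 of the 44 genes lie within 0.1 of 0.

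The fibrillar collagens split into 4 genes with positive differences above 0.1 and 7 genes close to 0. Col1a1 and Col1a2 encode the chains of collagen I, the main fibril protein of skin, bone and meninges. Col1a2 (Entrez 12843) read 8.50, 8.14 and 7.98 in mutants 1, 2 and 3, against 7.89, 7.83 and 7.43 in controls 1, 2 and 3. Every mutant lay above every control, mutant 3 by little over control 1. Its mean was 8.20 ± 0.27 in mutants and 7.72 ± 0.25 in controls (SD, n = 3 arrays each), a difference of 0.49 ± 0.15 (SE) or 1.40-fold that did not pass (limma adjusted p = 0.482, unadjusted p = 0.0118). Col1a1 (Entrez 12842) read 8.57, 8.36 and 8.20 in mutants, against 8.16, 8.07 and 7.77 in controls. The groups again did not overlap, and the order of the arrays within each group was that of Col1a2. The difference was 0.38 ± 0.12 (SE, limma adjusted p = 0.505), with a 95% interval of 0.10 to 0.66.

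Col3a1 (Entrez 12825), which encodes the chain of collagen III of pliable connective tissue, read 7.62, 7.41 and 7.35 in mutants, against 7.35, 7.28 and 6.87 in controls. Mutant 3 lay just under control 1, so the groups overlapped, and control 3 stood lowest by far. The difference was 0.29 ± 0.13 (SE, limma adjusted p = 0.825). Col2a1, the fibril gene of cartilage that is also transcribed by early neural progenitors, read 8.61, 8.50 and 8.48 in mutants and 8.51, 8.35 and 8.28 in controls. The groups overlapped, with a difference of 0.15 ± 0.08 (SE, limma adjusted p = 0.934).

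Of the remaining fibrillar genes, Col5a1, Col5a2 and Col5a3 encode collagen V, which starts and thins the fibrils of collagen I. Col5a2 read 6.91, 6.77 and 6.73 in mutants, against 6.90, 6.78 and 6.80 in controls. Its groups overlapped closely, with a difference of -0.02 ± 0.07 (SE). Col11a1 and Col11a2, chains of the cartilage collagen XI, and Col24a1 and Col27a1, minor fibrillar collagens, differed by between -0.01 and 0.01, as did Col5a1 and Col5a3. The median of the 11 fibrillar genes was 0.01, with 7 positive differences, and 0.03 without mutant replicate 1, again with 7 positive. Without that array Col1a2 differed by 0.34 (limma adjusted p = 0.9997, unadjusted p = 0.0437), Col1a1 by 0.28 (unadjusted p = 0.0546) and Col3a1 by 0.21 (unadjusted p = 0.169). Without control replicate 3, Col3a1 differed by 0.14, and without both arrays Col1a2, Col1a1 and Col3a1 differed by 0.199, 0.164 and 0.066 on the log2 scale.

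**Figure D2:**
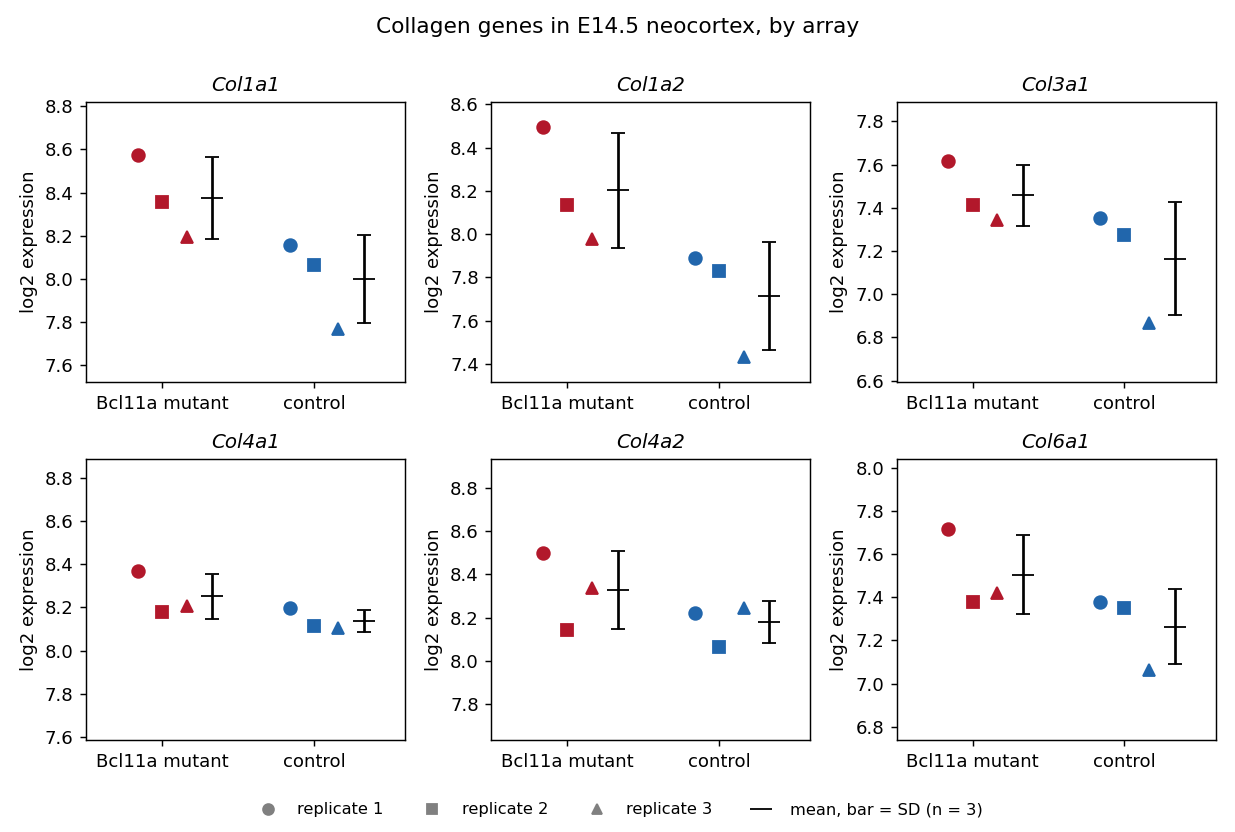
Log2 expression of Col1a1, Col1a2, Col3a1, Col4a1, Col4a2 and Col6a1 on each array, with the mean and SD of 3 mutant and 3 control arrays beside the points. Every panel spans the same range of log2 units. Mutant replicate 1 is the highest array in all 6 panels, and control replicate 3 the lowest in all but Col4a2.

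The promoters of Col1a2 and Col3a1 are shown because these genes had, with Col1a1, the largest fibrillar differences. RefSeq sequences of GRCm38.p6 were matched by symbol for 35 of the 44 collagens, with 38 windows in all, and each window covers 250 bases before to 50 bases after a start site. The window of Col1a2 is chr6:4505368-4505667 and that of Col3a1 chr1:45311288-45311587, both on the plus strand, printed 5′ to 3′ with the letters CCAAT, on either strand, in capitals. These letters are the core of the site of the general transcription factor NF-Y, which is known to act at collagen I promoters.
Col1a2: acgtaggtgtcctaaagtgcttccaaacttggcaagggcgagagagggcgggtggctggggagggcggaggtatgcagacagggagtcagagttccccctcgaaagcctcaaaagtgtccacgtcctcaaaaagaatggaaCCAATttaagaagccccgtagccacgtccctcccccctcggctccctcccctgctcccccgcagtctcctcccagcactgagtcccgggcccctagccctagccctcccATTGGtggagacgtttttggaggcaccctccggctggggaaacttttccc
Col3a1: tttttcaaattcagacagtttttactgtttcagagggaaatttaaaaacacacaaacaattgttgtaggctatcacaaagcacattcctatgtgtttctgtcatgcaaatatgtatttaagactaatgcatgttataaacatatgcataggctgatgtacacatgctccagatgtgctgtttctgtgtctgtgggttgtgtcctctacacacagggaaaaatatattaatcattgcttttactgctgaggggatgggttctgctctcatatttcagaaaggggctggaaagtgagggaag
The Col1a2 window held 2 matches to CCAAT and the Col3a1 window none. Over both strands, CCAAT stood in 13 of the 38 collagen windows (34.2%) and in 37.4% of all 32851 windows. GGGCGG, the core of the site of Sp1, stood in 23 collagen windows (60.5%) and in 35.7% of all windows, with 2 matches for Col1a2 and none for Col3a1. TGACCA, the motif described for human BCL11A at the fetal globin promoter, stood in 5 collagen windows (13.2%) and in 13.6% of all windows, and in neither of these. TGACCA ends in letters with which CCAAT begins, so matches to both can overlap, and a match or its lack is a description of these windows alone.

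Basement membrane collagens showed 7 positive differences among 8 genes, with a median of 0.01, and 3 positive with a median of -0.03 without mutant replicate 1. Col4a1 and Col4a2 encode the chains of the collagen IV found in nearly every basement membrane. Col4a2 (Entrez 12827) read 8.50, 8.14 and 8.34 in mutants 1, 2 and 3, against 8.22, 8.07 and 8.24 in controls 1, 2 and 3. The groups overlapped, and only mutants 1 and 3 lay above all controls. Its difference was 0.15 ± 0.10 (SE, limma adjusted p = 0.9995). Col4a1 (Entrez 12826) read 8.37, 8.18 and 8.21 in mutants, against 8.20, 8.11 and 8.10 in controls. Mutant 1 again stood highest, the groups overlapped, and the difference was 0.11 ± 0.07 (SE). Without mutant replicate 1 the difference was 0.06 for Col4a2 and 0.05 for Col4a1.

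Col4a1 and Col4a2 lie head to head, as RefSeq places their start sites 21 bases apart on chromosome 8 of GRCm38.p6. Their windows are shown because they share 78 bases, from which the genes are read in opposite directions. The Col4a2 window is chr8:11312555-11312854 on the plus strand and the Col4a1 window chr8:11312777-11313076 on the minus strand, with capitals as above.
Col4a2: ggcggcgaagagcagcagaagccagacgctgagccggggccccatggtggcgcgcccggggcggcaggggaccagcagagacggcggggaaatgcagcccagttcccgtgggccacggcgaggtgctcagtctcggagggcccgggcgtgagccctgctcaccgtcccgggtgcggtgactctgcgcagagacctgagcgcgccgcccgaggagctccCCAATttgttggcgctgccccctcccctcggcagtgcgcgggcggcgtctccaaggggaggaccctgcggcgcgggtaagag
Col4a1: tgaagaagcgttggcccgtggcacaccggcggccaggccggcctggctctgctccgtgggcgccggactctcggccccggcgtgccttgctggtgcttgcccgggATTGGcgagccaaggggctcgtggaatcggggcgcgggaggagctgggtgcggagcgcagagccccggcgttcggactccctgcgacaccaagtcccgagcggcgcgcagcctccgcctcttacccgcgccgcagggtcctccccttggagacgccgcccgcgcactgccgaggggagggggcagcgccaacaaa
Each of these windows held 1 match to CCAAT. The Sp1 core had 3 matches in the Col4a2 window and 1 in that of Col4a1, and neither window held the BCL11A motif. The Sp1 match of the Col4a1 window lies in the shared bases and is also 1 of the 3 in the Col4a2 window. Col4a5 and Col4a6 are also head to head, on the X chromosome, with start sites 1343 bases apart and no shared letters in their windows.

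The chains of Col4a3, Col4a4, Col4a5 and Col4a6 are known from kidney, ear and other special basement membranes. Col4a3 read 6.91, 6.76 and 6.89 in mutants, against 7.01, 6.85 and 6.59 in controls, with a difference of 0.04 ± 0.10 (SE). Col4a6 read 6.55, 6.45 and 6.49 in mutants, against 6.55, 6.66 and 6.39 in controls, with a difference of -0.04 ± 0.08 (SE). The groups of both genes overlapped, with mutants inside the control range. Col15a1 and Col18a1 encode collagens of the outer face of basement membranes, and Col18a1 is the source of endostatin. Col18a1 read 8.328, 8.007 and 7.996 in mutants, against 8.177, 8.082 and 8.038 in controls. Mutant 1 lay above all controls and the other mutants below all of them, which left a difference of 0.01 ± 0.10 (SE) and, without mutant replicate 1, of -0.10 (limma adjusted p = 0.9997).

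The other collagens had a median difference of 0.03, with 17 of 25 positive, and of 0.04 without mutant replicate 1, again with 17 positive. Collagen VI forms beaded filaments around cells. Its gene Col6a1 (Entrez 12833) read 7.71, 7.38 and 7.42 in mutants, against 7.38, 7.35 and 7.06 in controls. The groups did not overlap, but mutant 2 and control 1 were nearly equal, and the difference was 0.24 ± 0.11 (SE, limma adjusted p = 0.888). Col6a3, whose chain joins those of Col6a1 and Col6a2, read 7.42, 7.03 and 7.18 in mutants, against 7.24, 7.08 and 6.85 in controls. Its groups overlapped, with a difference of 0.16 ± 0.12 (SE), and Col6a2 differed by 0.13. Without mutant replicate 1 these differences were 0.135 for Col6a1, 0.052 for Col6a3 and 0.047 for Col6a2. Col6a4, Col6a5 and Col6a6 differed by between -0.03 and 0.10. Col6a5 and Col6a6 had a second, dimmer probe set each, which differed by -0.04 and 0.03.

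Fibril-associated collagens sit on the surface of fibrils. Col14a1 read 7.294, 7.505 and 7.283 in mutants, against 7.338, 7.072 and 6.903 in controls. It was highest in mutant 2, the groups overlapped, and the difference of 0.26 ± 0.11 (SE) did not pass (limma adjusted p = 0.834). Without mutant replicate 1 the difference was larger, at 0.29, and again did not pass (limma adjusted p = 0.9997, unadjusted p = 0.0646). Col12a1 read 7.04, 6.71 and 6.86 in mutants, against 6.68, 7.15 and 7.27 in controls. The controls spanned more than the mutants and held both the lowest and the highest array, with a difference of -0.16 ± 0.15 (SE), and of -0.25 without mutant replicate 1. The genes of collagen IX, Col9a1, Col9a2 and Col9a3, differed by 0.04, 0.01 and -0.10, and Col16a1, Col19a1, Col20a1 and Col22a1 by between -0.08 and 0.08. Without mutant replicate 1 the difference of Col20a1 turned to 0.03.

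Among the remaining collagens, Col26a1, a secreted collagen first found in testis and ovary, read 8.51, 8.05 and 8.05 in mutants, against 8.20, 7.98 and 7.79 in controls. Mutant 1 alone lay above the controls. The difference was 0.22 ± 0.14 (SE, limma adjusted p = 0.9995), and 0.06 without mutant replicate 1. Of the short-chain collagens of vessel walls, cornea and growth plate, Col8a1 differed by 0.15, Col8a2 by 0.03 and Col10a1 by -0.08. Without mutant replicate 1 the difference of Col8a1 was -0.02, while those of Col8a2 and Col10a1 were 0.03 and -0.08. Col13a1, Col17a1, Col23a1 and Col25a1 span the cell membrane, and differed by between -0.03 and 0.13. Col25a1, the neuronal collagen of this group that motor nerves need in the mouse, differed by -0.02, and by 0.05 without mutant replicate 1, and lay between 6.76 and 7.06 in mutants and between 6.75 and 7.05 in controls. Col7a1, which anchors the epidermis, differed by -0.01 and Col28a1 by 0.06.

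Control replicate 3 was the lowest of the 6 arrays for 39 of the 44 collagens, against 27.6% of all genes and 47.0% of the 6946 genes whose mean level lay in the range of the collagens. The exceptions were Col4a2, Col5a2, Col12a1, Col18a1 and Col20a1. Control replicate 1 was the highest array for 23 collagens, against 21.2% of all genes and 30.8% of those in the level range, and lay above control replicate 3 for 42 of the 44. The median gap between these controls was 0.34 for the collagens, against 0.01 over all genes and 0.12 in the level range. The median SD of the collagens was 0.08 among mutants and 0.18 among controls, against 0.07 and 0.09 over all genes and 0.08 and 0.12 in the level range. The part of this spread in the differences of single collagens was not tested beyond leaving out arrays. Without control replicate 3 the median difference of the 44 was -0.05, and without control replicate 1 it was 0.09.

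**Figure D3:**
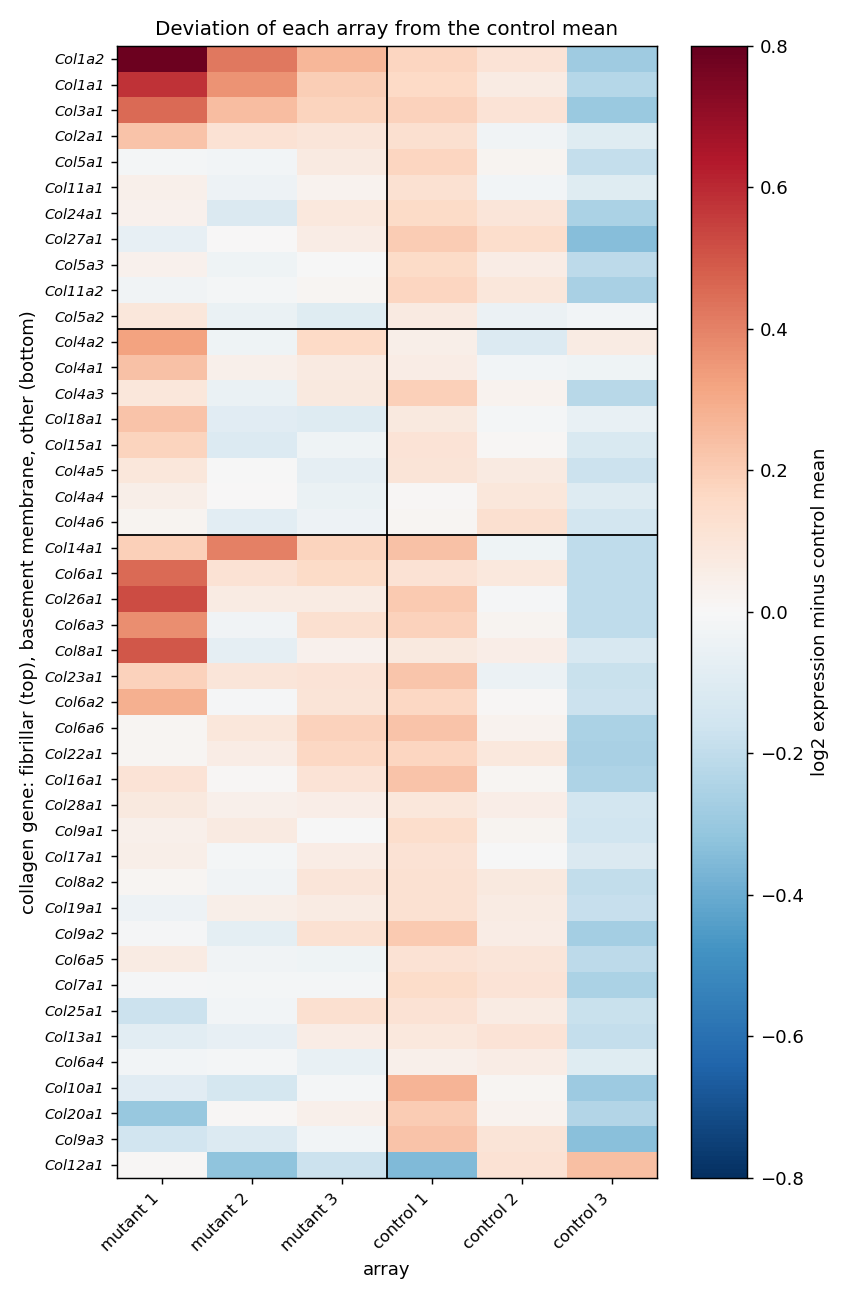
Log2 expression of the 44 collagens on each array minus the control mean of the gene, with mutants left of controls and the classes separated by lines. Control replicate 3 is the lowest array for 39 of 44 genes, and mutant replicate 1 is the highest for 14, which lie mainly at the top of each class.

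Mutant replicate 1 was the highest of the 6 arrays for 14 collagens, against 27.6% of all genes and 25.1% of those in the level range. These were Col1a1, Col1a2, Col2a1, Col3a1 and Col5a2 of the fibrils, Col4a1, Col4a2, Col15a1 and Col18a1 of basement membranes, and Col6a1, Col6a2, Col6a3, Col8a1 and Col26a1. It lay above both other mutants for all 8 basement membrane collagens, 7 of 11 fibrillar and 11 of 25 other collagens, against 43.3% of all genes. Col8a1, a collagen of vessel walls, was 0.52 higher in mutant 1 than in the mean of mutants 2 and 3, Col26a1 was 0.46 higher, Col1a2 0.44 and Col18a1 0.33. At the other end Col20a1 was 0.33 lower and Col25a1 0.22 lower in that embryo.

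Markers of meninges and fibroblasts mostly stood high in mutant replicate 1, as did some of the collagens. All 20 of these genes were measured, none passed and 17 had positive differences. Their mean level was 7.67, 6.86 and 6.83 in mutants 1, 2 and 3, and lay between 6.70 and 6.81 in controls. Dcn, the small proteoglycan decorin that binds collagen fibrils, read 10.49, 8.32 and 7.27 in mutants, against 6.62, 6.58 and 6.62 in controls. Lum, the related lumican, read 6.90, 4.68 and 4.78 in mutants, against 4.50, 4.63 and 4.50 in controls. Slc6a13, a transporter of leptomeningeal cells, read 8.40, 5.85 and 5.86 in mutants, against 5.99, 5.94 and 5.88 in controls. Mutant replicate 1 was the highest array for 16 of the 20 markers. Of the rest, Dpt was lowest in that array, at 4.69, and Foxp1 had all mutants below all controls. Fn1 and Crabp2 were highest in control 1. In mutant 1 the median marker stood 0.62 above its control mean, and in mutants 2 and 3 it stood 0.05 and 0.09 above it. The median collagen stood 0.05 above its control mean in mutant 1, but Col1a2 at 8.50 against a control mean of 7.72 and Col1a1 at 8.574 against 7.998 stood about as high as the median marker. The part of these cells in the collagen values was not tested. Dcn was also above all controls in mutants 2 and 3, as were Col1a1 and Col1a2.

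Markers of other cells that make collagens were also mostly highest in that array, by a smaller margin. Of 14 genes of pericytes and smooth muscle, 12 had positive differences and none passed, and their mean level was between 7.63 and 8.17 in mutants and between 7.58 and 7.67 in controls. Vtn, the vitronectin gene of pericytes, read 10.12 in mutant 1, against 8.72 and 8.77 in mutants 2 and 3 and at most 8.72 in controls. Its difference of 0.66 was the largest of that list. Kcnj8 and Notch3 differed by -0.02 and -0.11 and, with Rgs5, were highest in a control array, while Tagln was highest in mutant 3. Of 15 measured endothelial genes, 14 had positive differences and none passed, and their mean level was between 8.58 and 8.89 in mutants and between 8.53 and 8.70 in controls. Mfsd2a alone differed the other way, by -0.33 (limma adjusted p = 0.126), the largest in size of that list. Its mutants all lay below its controls, and the difference was -0.35 without mutant replicate 1. Mutant replicate 1 was the highest array for 10 of the 14 pericyte genes and 13 of the 15 endothelial genes. The median difference of the pericyte list was 0.15, and 0.04 without that array, and that of the endothelial list was 0.08, and -0.01 without it.

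**Figure D4:**
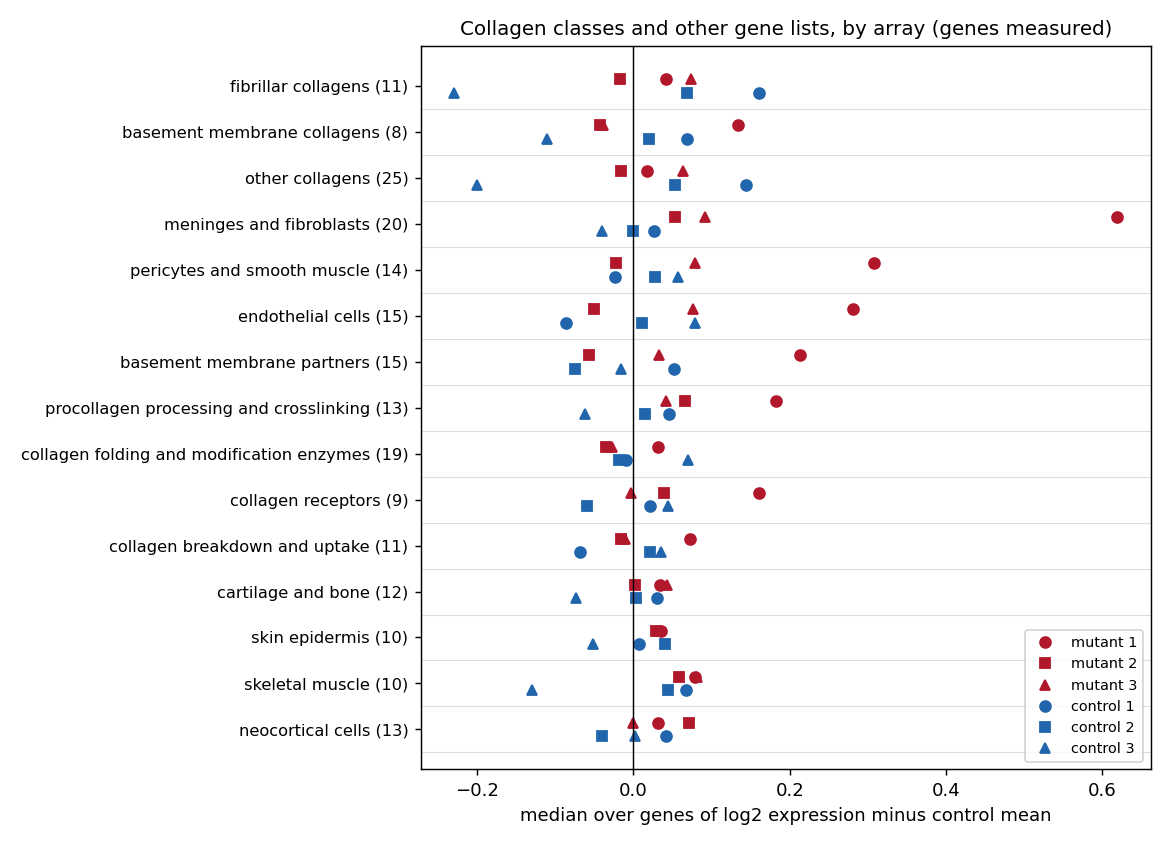
Median over the genes of each class or list of the log2 level minus the control mean, for each of 3 mutant and 3 control arrays, with the number of genes measured in brackets. Mutant replicate 1 stands apart at 0.62 for meninges and fibroblasts, while control replicate 3 stands lowest for all classes of collagens.

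The enzymes that fold and modify collagen chains, which act on hydroxyl and sugar groups in the endoplasmic reticulum, had a median difference of -0.0023. Of 20 listed genes 19 were measured, none passed and 9 had positive differences. P4ha3, a prolyl hydroxylase subunit, read 8.15, 8.01 and 7.94 in mutants, against 8.71, 8.26 and 8.38 in controls. All mutants lay below all controls, with a difference of -0.41 ± 0.11 (SE) that did not pass (limma adjusted p = 0.355), and of -0.47 without mutant replicate 1. P3h4, a partner of lysyl and prolyl hydroxylases, differed by 0.29 and Colgalt2, which adds galactose to hydroxylysine, by -0.19. Serpinh1, the collagen chaperone Hsp47, read 9.164, 9.001 and 9.017 in mutants, against 9.066, 9.078 and 9.026 in controls. Its difference was 0.0038, with a 95% interval of -0.15 to 0.15.

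Genes that trim procollagen and crosslink fibrils had a median difference of 0.11, and of 0.05 without mutant replicate 1. Of 15 listed genes 13 were measured, none passed and 11 had positive differences. Lox, the lysyl oxidase that starts crosslinks, read 7.66, 5.81 and 5.59 in mutants, against 5.49, 5.47 and 5.37 in controls. The mutants lay above the controls, mutant 1 by far the most. The difference was 0.91 ± 0.45 (SE, limma adjusted p = 0.923), and 0.26 without mutant replicate 1. Tll2, a protease related to Bmp1, differed by 0.30, and Pcolce2, an enhancer of procollagen cleavage, by -0.30, and neither passed (limma adjusted p = 0.370 and 0.409). Of 12 genes of collagen breakdown and uptake 11 were measured, 6 had positive differences and none passed. Mmp9, a gelatinase, read 7.303, 7.420 and 7.415 in mutants, against 7.643, 7.677 and 7.676 in controls. All mutants lay below all controls, with a difference of -0.29 ± 0.06 (SE, limma adjusted p = 0.163). It passed with array weights, at -0.27 (limma adjusted p = 0.0386), a fit in which 217 of all 19938 genes passed, against 57 in the main fit. Mmp2, the other gelatinase, differed by 0.33 and Mmp14, which activates it, by -0.16. Without mutant replicate 1 Mmp2 differed by 0.15 and Mmp14 by -0.25 (limma adjusted p = 0.643, unadjusted p = 0.0115).

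Of 10 collagen receptors 9 were measured, 8 had positive differences and none passed. Adgrg1, the receptor of collagen III, read 12.59, 12.55 and 12.51 in mutants, against 12.56, 12.43 and 12.55 in controls. Its difference was 0.04 ± 0.06 (SE), with a 95% interval of -0.11 to 0.18. The integrin subunit genes Itga2, Itga11 and Itga1 differed by 0.24, 0.22 and 0.17, and by 0.20, 0.13 and -0.01 without mutant replicate 1. Of these Itga2 had mutants above all controls (limma adjusted p = 0.323). Of 16 partners of collagen IV in basement membranes 15 were measured, 12 had positive differences and none passed. Lama2, the laminin chain of muscle, nerve and vessels, read 6.99, 6.44 and 6.46 in mutants, against 6.11, 6.19 and 5.88 in controls. The groups did not overlap, with a difference of 0.57 ± 0.15 (SE, limma adjusted p = 0.294) and of 0.40 without mutant replicate 1. Nid2 and Nid1, the nidogens that link laminin to collagen IV, differed by 0.32 and 0.24, and by 0.07 and 0.05 without that array.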

How the data were processed

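Neocortex RNA of 6 mouse embryos was labelled with biotin and hybridised to 1 array each. Per the submitters' processing notes, the authors used Affymetrix Expression Console and RMA, which corrects background, normalizes quantiles and summarises probe sets. The deposited values were taken as log2, as RMA gives, and ranged from 3.41 to 13.8. No software version or genome build was stated by the labels.

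GEO's platform annotation gave 1 symbol for 21789 of 35556 probe sets. The probe set with the highest mean stood for a gene. RefSeq sequences came from GRCm38.p6. The comparison used lmFit and eBayes of limma 3.58.1 (R 4.3.3) without covariates, with Benjamini-Hochberg adjustment over 19938 genes and a threshold of 0.05. Adjusted p-values are two-sided and come from this main fit, except where another fit is named beside them. The main fit was tested only on simulated data with independent noise and shifts larger than any collagen difference, so smaller shifts were not covered. Errors are SDs over 3 arrays or moderated standard errors, and precision is limited by the number of arrays. RMA's quantile step hides a shift of most genes.

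Collagens and lists were chosen with earlier results of these data known. Values are given for Col1a1, Col1a2, Col3a1, Col4a1, Col4a2, and the 5 largest differences of each class, and for up to 3 genes of other lists, with Serpinh1, Adgrg1, Dcn and Bcl11a. Alternatives left out arrays or changed normalization, weights, variance model, probe sets, dim genes and threshold.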

Additional observations from a re-analysis of the deposited data

How the results depend on the processing

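No collagen passed in any of 15 alternative fits or at an adjusted p under 0.1, and the lowest adjusted p of a collagen was 0.134, for Col1a2 in the replicate block fit. Deviations of same-numbered arrays from the group means correlated at 0.028, -0.142 and 0.083. No mutant correlated best with the control of its own number, so the numbers were not taken to pair the samples. Such small correlations cannot exclude a pairing. With the block 34 genes of all passed. In that fit 7 of the 44 collagens had an unadjusted limma p under 0.05, with Col1a1 at 0.00074 and Col1a2 at 0.00069. The share of all genes at that threshold was not counted for this fit. The number of all genes past the threshold was 57, and 20 to 50 when 1 array was left out. It was 217 with array weights, 87 with an intensity trend and robust eBayes, and 107 at an adjusted p under 0.1. In the lists of collagen enzymes, receptors and partners none passed, except 1 gene, Mmp9, with array weights. The median of the basement membrane collagens was -0.11 without mutant replicate 1 and control replicate 3 together, a setting chosen after the data were seen, as was cyclic loess. The 4 medians of the collagens and their classes otherwise moved by less than the spread between arrays. That spread, an SD of 0.11 to 0.19, was larger than the medians themselves, so their directions were not stable. The median of the 44 turned negative in some fits, among them quantile normalization (-0.021), median centring (-0.019) and array weights (-0.014). The median of all genes in these fits was -0.005, -0.020 and 0.008, so with median centring it turned by as much as that of the collagens. Among the named collagens directions turned for 6, none of which passed in any fit. The cause was not tested. With 1 array left out, Col4a3 ranged from -0.073 (without control replicate 3) to 0.134, Col4a6 from -0.109 to 0.029 (without control replicate 2), Col5a2 from -0.077 to 0.017 (without mutant replicate 3) and Col18a1 from -0.097 (without mutant replicate 1) to 0.069. Quantile normalization gave -0.0042 for Col4a3 and -0.035 for Col18a1, median centring -0.00069 and -0.027, and array weights -0.020 and -0.030. Without both arrays together Col4a3 was -0.099, Col6a3 -0.051, Col18a1 -0.128 and Col26a1 -0.038, and with cyclic loess Col18a1 was -0.018. Col1a1, Col1a2 and Col3a1 kept positive differences in all 15 fits, but most of these fits could not turn the sign. For Col1a1 and Col1a2 every mutant lay above every control, so leaving out arrays could not turn it. The fits that changed only the block, variance model, probe sets or dim genes left the differences of all these genes as they were.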

Other observations

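Lists for cartilage and bone, skeletal muscle and skin epidermis, tissues that lie outside the brain, gave no call. Their genes need not be particular to these tissues. Sox5 of the cartilage and bone list read 11.66, 11.60 and 11.72 in mutants 1, 2 and 3, against 11.75, 11.72 and 11.81 in controls. That is far above the mean level of its list, and its difference was -0.10. Of 12 measured genes of cartilage and bone, 8 had positive differences, and their mean level lay between 6.56 and 6.64 in mutants and between 6.52 and 6.62 in controls. Ibsp, a bone matrix protein, and Alpl, the alkaline phosphatase of bone and brain, differed by 0.23 and 0.21, and by 0.09 each without mutant replicate 1, in which both were highest. Of 10 genes of skeletal muscle, 8 had positive differences, with Tnnc2 at 0.17, or 0.06 without mutant replicate 1, and control replicate 3 was the lowest array for 6 of them. Of 10 genes of skin epidermis, 8 had positive differences, with Krt5 at 0.11 and Dsp at -0.11, or 0.03 and -0.10 without mutant replicate 1. Microglia and macrophage genes all had positive differences, 14 of 14, against 60.3% of all genes, with none past the threshold. Their mean level lay between 7.100 and 7.396 in mutants and between 6.915 and 7.002 in controls, so the groups did not overlap. Fcrls, a microglial gene, differed by 0.45, and by 0.33 without mutant replicate 1. Lyve1, a gene of macrophages at the brain's borders, differed by 0.45, and by 0.03 without that array. Lyve1 read 7.19, 5.87 and 5.98 in mutants, against 6.15, 5.76 and 5.77 in controls. Of 10 measured choroid plexus genes 1 passed, Car12, against 0.286% of all genes. Car12 differed by -0.42 (limma adjusted p = 0.0393). It passed in 1 of 6 fits with 1 array left out, the one without control replicate 1, with differences between -0.46 and -0.39 and limma adjusted p up to 0.200. Ttr, the defining gene of that tissue, differed by -0.06. Of 10 measured erythroid genes 6 passed, all higher in mutants, against 0.286% of all genes. They were led by the embryonic globin gene Hbb-bh1 at 5.02 (limma adjusted p = 5.9e-05) and followed by Slc4a1, Hba-x, Kel, Rhag and Epb42. The call of Epb42 was lost on leaving out any 1 array, and that of Rhag on leaving out mutant replicate 2 or 3. The list's mean level was 8.54 to 8.64 in mutants and 7.38 to 7.45 in controls. Mutant replicate 1 did not stand apart in that list.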
